A study of Homo sapiens with 6 samples.

Results

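The genes examined were the 9 enzymes and partners that write, maintain and remove DNA methylation: DNMT1, DNMT3A, DNMT3B, DNMT3L and UHRF1 on the methylation side, and TET1, TET2, TET3 and TDG on the demethylation side. The members were the ZIC2-bound regions whose nearest edge lay within 100 kb of the start of one of these genes on hg19, with starts known to 1 kb. There were 36 such regions among the 16077 different regions in the whole series (0.224%). ZIC2, a zinc-finger transcription factor, was profiled by CUT&Tag, in which an antibody guides a transposase to cut and tag the DNA beside the bound protein. The cells were H1 (WA01), an established human embryonic stem cell line, either wild type (WT, 2 ZIC2 libraries) or with the zinc-finger gene ZNF263 knocked out with Cas9 (KO, 2 ZIC2 libraries). One IgG library accompanied each genotype and was not analysed here. The labels name no treatment. The labels call the knockout homogeneous, and do not say whether the knockout cells are a single clone or whether numbered replicates are separate cultures.

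The deposited data are 1 list of ZIC2 regions per genotype, with the position of each region and no height, score or read count. A region found in both lists by at least 1 bp of overlap is called shared, and otherwise WT-only or KO-only. All 4120 shared regions of the series had the same edges in both lists, so the width of a shared region is 1 value for both genotypes. Values below therefore carry no replicate error, depth is unknown, and absence from a list says only that no region was listed there. Cell identity and the ZNF263 deletion could not be checked against expression, since the lists hold none.

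In mammals, DNA methylation is set on cytosines, mostly in CpG dinucleotides. DNMT3A and DNMT3B place new methyl groups, DNMT3L is a partner without catalytic activity of its own that stimulates them, and DNMT1 copies the pattern to the new strand after replication, guided by UHRF1, which recognises hemimethylated DNA. TET enzymes oxidise the methyl group, and TDG excises oxidised bases so that repair can restore an unmethylated cytosine. Human embryonic stem cells are known for high levels of DNMT3B and TET1.

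A region was called within 2 kb of the start of 5 of the 9 genes: DNMT1, DNMT3B, UHRF1, TET1 and TDG. The share of all gene starts with a region this close was not measured, so nothing is read from this count. For 4 of these 5 genes the sequence up to a RefSeq start (GRCh38.p14, the 250 bases before it) is shown. Distances were taken from the hg19 starts known to 1 kb. Capitals mark GGAGGA on either strand, a core of the ZNF263 motif.

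DNMT1: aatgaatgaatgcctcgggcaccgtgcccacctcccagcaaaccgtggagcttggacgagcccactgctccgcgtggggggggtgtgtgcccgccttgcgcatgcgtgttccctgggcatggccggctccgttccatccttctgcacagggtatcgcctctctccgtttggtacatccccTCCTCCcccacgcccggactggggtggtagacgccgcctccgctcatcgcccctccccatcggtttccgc

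UHRF1: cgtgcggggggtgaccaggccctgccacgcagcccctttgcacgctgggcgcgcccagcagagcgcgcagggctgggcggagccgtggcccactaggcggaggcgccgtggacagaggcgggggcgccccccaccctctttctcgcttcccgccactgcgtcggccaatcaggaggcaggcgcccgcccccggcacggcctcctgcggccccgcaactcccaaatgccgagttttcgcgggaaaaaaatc

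TET1: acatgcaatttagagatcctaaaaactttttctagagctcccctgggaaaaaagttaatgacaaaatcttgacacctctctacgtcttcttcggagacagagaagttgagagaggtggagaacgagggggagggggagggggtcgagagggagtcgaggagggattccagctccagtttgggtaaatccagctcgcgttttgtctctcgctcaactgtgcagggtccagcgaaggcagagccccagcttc

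TDG: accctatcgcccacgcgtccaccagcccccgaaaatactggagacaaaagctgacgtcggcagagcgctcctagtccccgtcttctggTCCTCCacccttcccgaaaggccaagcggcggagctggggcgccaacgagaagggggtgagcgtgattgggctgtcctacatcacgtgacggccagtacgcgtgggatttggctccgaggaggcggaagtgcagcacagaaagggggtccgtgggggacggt

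RefSeq gives 3 starts each for UHRF1 and TET1, and the first listed is printed. That UHRF1 start also lies inside the gene as the same table bounds it, 6421 bases from its 5′ end, whereas the starts of DNMT1, TET1 and TDG are at the 5′ end. DNMT3B is named only, since its single entry belongs to a start farther inside the gene than that of UHRF1, 17467 bases from the 5′ end in the same table. Whether the printed UHRF1 start is the one used for distances was not checked. The printed windows are of another build than the regions, so their overlap with the regions was not measured. GGAGGA was present once at DNMT1 (position -70, the start base being 0) and once at TDG (position -162), and these letters are not in the UHRF1 and TET1 windows. Of 35116 promoter windows of the same length in the table, 31.8% hold it on either strand. Cores of the ZIC motif, CCTGCTG and CCCGCTG, are in 8.48% and 6.20% of all windows on either strand, and in none of these 4. The 4 windows differed in CpG content, with 21 CpG dinucleotides at DNMT1, 28 at UHRF1, 22 at TDG and 9 at TET1, against a median of 11 over all windows.

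The 5 methylation genes had 27 regions (9 shared, 12 WT-only, 6 KO-only) and the 4 demethylation genes 9 (5 shared, 3 WT-only, 1 KO-only). Of their WT regions, 57.1% (exact Clopper-Pearson 95% interval 34.0 to 78.2) and 37.5% (8.52 to 75.5) were WT-only, and these intervals overlap. Over all 9 genes, 29 regions were in the WT list and 21 in the KO list, with 14 shared, 15 WT-only and 7 KO-only. That is 72.4 KO regions per 100 WT regions, beside 55.8 in the whole series. Of the WT regions near these genes 51.7% were not called in KO (32.5 to 70.6), beside 68.2% of the whole WT list. Of the KO regions near these genes 33.3% were not called in WT (14.6 to 57.0), beside 43.0% of the whole KO list. Both intervals, which cover counting error only, include the value of the whole list, so the mix of classes was not shown to differ from that of the series. Shared regions made up 38.9% of the 36, against 25.6% of all regions, a share for which no interval was computed. Without DNMT3B, the gene with the most regions, 42.9% of the WT regions were not called in KO (21.8 to 65.98). That set was formed after the counts were seen, and nothing is read from it.

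**Figure D1:**
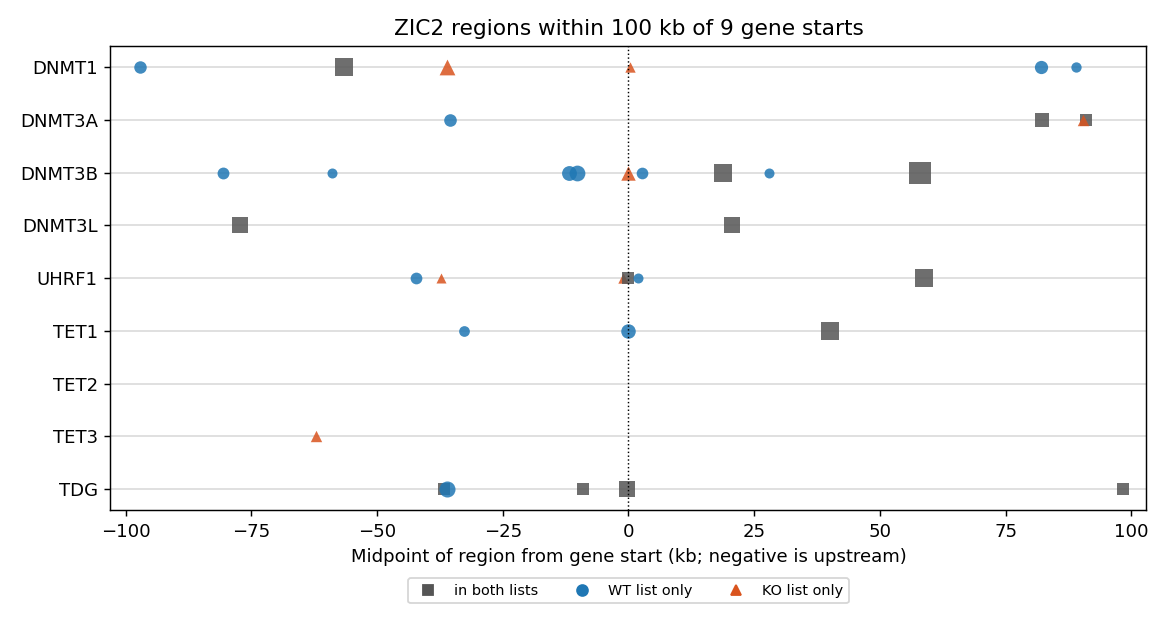
ZIC2 regions within 100 kb of each gene start, with the distance of the region's midpoint from the start on the x axis (kb, negative upstream in the gene's own direction) and 1 row per gene. Grey squares are in both lists, blue circles in the WT list only and orange triangles in the KO list only, and larger symbols are wider regions; the DNMT3B row holds 9 regions and the TET2 row 0.

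**Figure D2:**
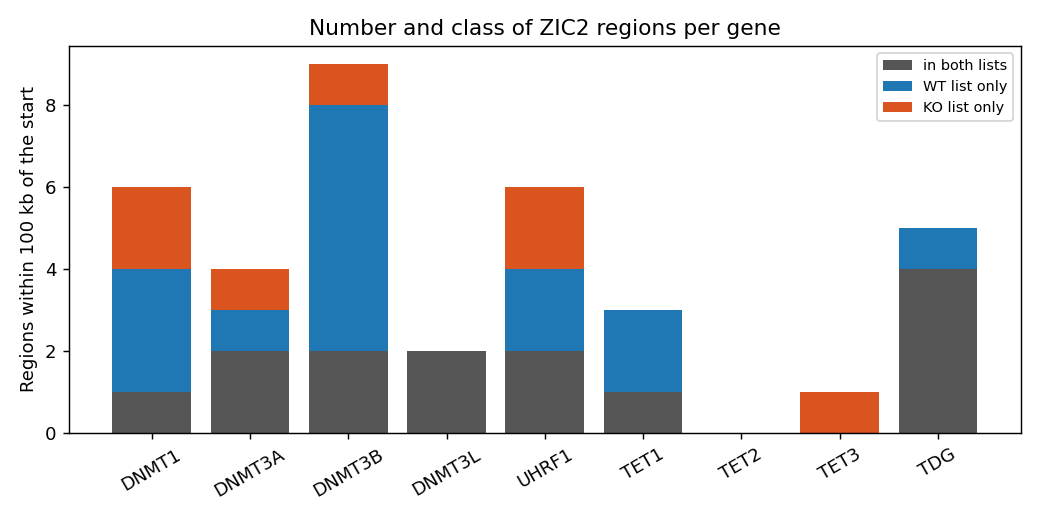
Number of ZIC2 regions within 100 kb of each start (y axis), stacked by class. DNMT3B has 6 WT-only regions, whereas 4 of the 5 regions at TDG are shared and TET3 has a single KO-only region. Over the whole series 25.6% of regions are shared.

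DNMT3B, which places new methylation and is the best represented gene of the set, had 9 regions within 100 kb, of which 8 were in the WT list and 3 in the KO list. Of the 8 WT regions 6 were WT-only, beside 68.2% of the whole WT list. The region over the start as given, chr20:31349613-31350028, was KO-only and 416 bp wide, and 15.1% of KO-only regions of the series are at least as wide. With starts known to 1 kb, whether this region covers the start itself cannot be told. The nearest WT region was a different one, chr20:31352507-31352744 (238 bp), which was WT-only and began 2.5 kb downstream of the start. A gap of 2478 bp separated the pair. Upstream stood 2 further WT-only regions, chr20:31337862-31338307 (446 bp, 11.7 kb from the start) and chr20:31339592-31340106 (515 bp, 9.9 kb), with 1284 bp between them. Only 12.0% and 8.43% of WT-only regions in the series are as wide as these. Within 20 kb of the DNMT3B start the WT list thus held 4 regions and the KO list 2. The whole series had 55.8 KO regions per 100 WT regions, so fewer KO regions is not particular to this gene.

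Both shared regions of the DNMT3B locus lay downstream, chr20:31368481-31369125 (645 bp) at 18.5 kb and chr20:31407540-31408529 (990 bp) at 57.5 kb. The second was the widest of all 36, and 4.78% of shared regions in the series reach its width. The remaining 3 were WT-only, 150 to 249 bp wide, at 28.0 kb downstream and at 58.8 and 80.6 kb upstream. In all, WT regions covered 3383 bp and KO regions 2051 bp of this window, beside 4346 and 2898 kb over the whole series. Among 315 consecutive 200 kb stretches of chromosome 20, the median held 1 region and 2 held 9 or more. Stretches laid end to end are not centred on genes, so this places the count and tests nothing. COMMD7 and MAPRE1 are the neighbouring protein-coding genes, by their order in the RefSeq GRCh38.p14 table, and which gene a region serves was not tested here or at the other loci. Distances to the starts of other genes were not measured at any locus, so a region listed here may lie nearer to another gene.

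DNMT1, the maintenance methyltransferase, had 6 regions, and the one at its start was KO-only. It spanned chr19:10305648-10305816 (169 bp), 184 bp from the start as known to 1 kb, and 49.4% of KO-only regions are at least as wide. No WT region lay within 50 kb, the nearest being 56.2 kb upstream. That region, chr19:10362205-10362971, was shared and 767 bp wide, the second widest of the 36. A further KO-only region of 514 bp stood 35.9 kb upstream (chr19:10341869-10342382), and 9.42% of KO-only regions are as wide. The 3 WT-only regions were all distal, at 81.9 and 88.9 kb downstream and 97.0 kb upstream, with widths of 335, 165 and 286 bp. Thus 2 of the 3 KO regions were KO-only, beside 43.0% of the whole KO list. Of the 4 WT regions 3 were WT-only, beside 68.2% of the whole WT list. Chromosome 19 is densely covered, with a median of 3 regions per 200 kb stretch, and 26.4% of its 296 stretches held 6 or more.

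UHRF1, which brings DNMT1 to hemimethylated DNA, was the gene with the most regions at its start, with 3 within 2 kb. The middle one, chr19:4909758-4910008 (251 bp), covered the start as given and was shared. A KO-only region of 169 bp, chr19:4908843-4909011, lay 746 bp from it on the upstream side. On the downstream side a WT-only region of 150 bp, chr19:4911914-4912063, lay 1905 bp from the shared one. The smallest width in either list is 150 bp, so this was a region of the least width listed. Some 37.2 kb upstream was a KO-only region of 150 bp, separated by 4726 bp from a WT-only region of 242 bp, chr19:4867719-4867960. The widest, chr19:4968401-4969059 (659 bp), was shared and lay 58.4 kb downstream. WT and KO lists held 4 regions each, covering 1302 and 1229 bp. Of the 6 regions 2 were shared, beside 25.6% of all regions in the series.

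DNMT3A, the other enzyme that places new methylation, had 4 regions and none within 20 kb of its start. The nearest was a WT-only region of 294 bp at 35.2 kb upstream, chr2:25600240-25600533, and the nearest KO region lay 82.1 kb downstream. That one, chr2:25482535-25482879 (345 bp), was shared and the widest at this gene. At 90.8 kb downstream a shared region of 236 bp, chr2:25473949-25474184, was followed after 219 bp by a KO-only region of 224 bp, chr2:25474404-25474627. DNMT3L, the cofactor, had 2 regions, and both were shared. They were chr21:45661175-45661701 (527 bp), 20.3 kb downstream, and chr21:45758916-45759526 (611 bp), 76.9 kb upstream. DNMT3L was the only gene of the 9 whose regions were identical in both lists, apart from TET2, which had none. This rests on 2 regions and on the limit, since a WT-only region of 150 bp lay 108 kb from DNMT3L. Of all regions in the series 25.6% were shared.

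TET1, a methylcytosine dioxygenase, had a WT-only region over its start as given to 1 kb, whereas the nearest regions of DNMT1 and DNMT3B were KO-only. DNMT3B also had a WT-only region 2.5 kb from its start, so it was not the reverse of TET1. UHRF1 on the methylation side and TDG on the demethylation side each had a shared region within 2 kb of the start. Of the whole WT list 68.2% of regions were WT-only, and of the whole KO list 43.0% were KO-only. The region over the TET1 start as given, chr10:70319721-70320141, was 421 bp wide, and 13.7% of WT-only regions in the series are at least as wide. In the KO list the nearest region was 39.8 kb downstream, chr10:70359779-70360444, a shared region of 666 bp. The third TET1 region was WT-only, 187 bp wide and 32.6 kb upstream. WT regions covered 1274 bp of the TET1 window and KO regions 666 bp.

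TDG, the glycosylase that removes oxidised cytosines, had more shared regions than any other gene of the 9, with 4 of its 5. Shared regions made up 25.6% of all regions in the series. A shared region of 506 bp, chr12:104359444-104359949, ended 51 bp from the start, which is less than the precision of the start. Another pair lay upstream, chr12:104350871-104351128 (258 bp) at 8.9 kb and chr12:104323134-104323394 (261 bp) at 36.6 kb. The latter was followed after 340 bp by the single WT-only region, chr12:104323735-104324269, which at 535 bp was the widest WT-only region of the 36 and wider than its shared neighbour. The fourth shared region (257 bp) was 98.1 kb downstream. Of 669 stretches of 200 kb on chromosome 12, 4.48% held 5 or more regions. By RefSeq order HSP90B1 and UQCC6 lie on the upstream side of TDG, and GLT8D2 and HCFC2 on the downstream side.

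TET2 and TET3, the other dioxygenases, had 0 and 1 regions. No region of either list lay within 100 kb of TET2, whose nearest WT region was 327.6 kb downstream and nearest KO region 347.7 kb upstream. On chromosome 4, 62.0% of 200 kb stretches held no region, so an empty window is common there. TET3 had 1 region, chr2:74210691-74210912, which was KO-only, 222 bp wide and 62.1 kb upstream. On chromosome 2, 53.7% of 200 kb stretches held no region and 46.3% held 1 or more, so a count of 1 is ordinary there. The WT list had a 150 bp region at 102.0 kb from TET3 and a 265 bp region at 102.6 kb, both WT-only and just outside the limit. Just inside it were the TDG region at 98.1 kb and the DNMT1 region at 97.0 kb.

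**Figure D3:**
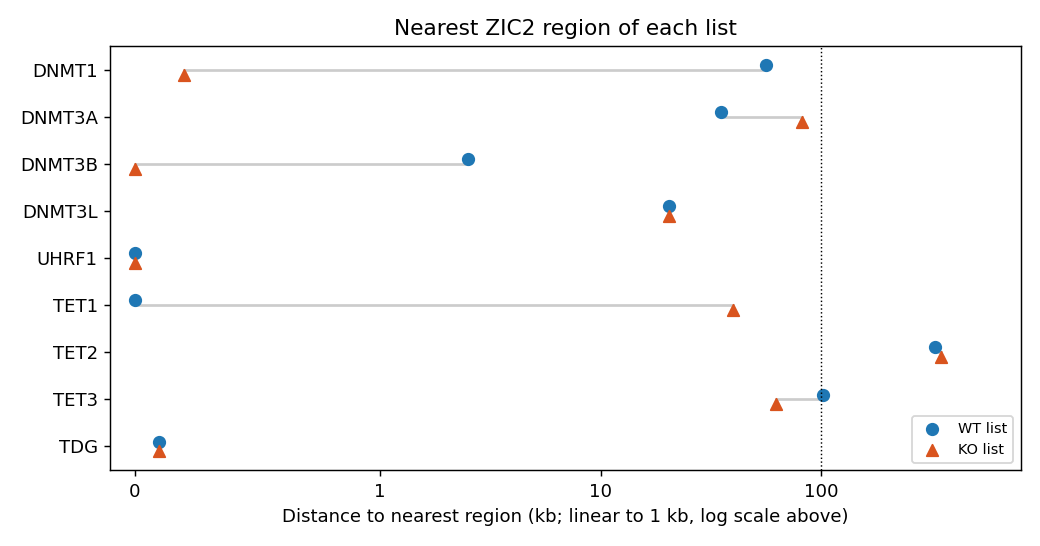
Distance from each gene start to the nearest region of the WT list (blue circles) and of the KO list (orange triangles), in kb on an axis that is linear to 1 kb and logarithmic above, with the 100 kb limit dotted. Both lists reach the start of UHRF1 and TDG, whereas the nearest WT region is 56.2 kb from DNMT1 and the nearest KO region 39.8 kb from TET1.

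Taking the starts as a group, 8 regions lay within 5 kb of one. They comprised 2 shared, 3 WT-only and 3 KO-only regions. The remaining 28, farther out, were 12 shared, 12 WT-only and 4 KO-only regions. KO-only regions made up 60.0% of the 5 KO regions near a start (14.7 to 94.7) and 25.0% of the 16 distal ones (7.27 to 52.4), beside 43.0% of the whole KO list. WT-only regions made up 60.0% of the 5 WT regions near a start (14.7 to 94.7) and 50.0% of the 24 distal ones (29.1 to 70.9), beside 68.2% of the whole WT list. These exact binomial intervals overlap, and WT-only and KO-only regions were equal in number near the starts. Within 2 kb, 3 starts had a region in 1 list and none in the other: DNMT1 and DNMT3B in KO, and TET1 in WT. DNMT3B depends on this limit, since a WT region lay 2.5 kb from its start and both lists had a region within 5 kb. The share of other gene starts with a region in 1 list only was not measured. UHRF1 and TDG had a shared region there.

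Some regions found in 1 list had a neighbour of the other list close by. Of the 7 KO-only regions, 4 were no more than 5 kb from a region of the WT list (57.1%, exact interval 18.4 to 90.1), at DNMT3A, DNMT3B and UHRF1, against 23.4% of KO-only regions in the series. The same held for 4 of the 15 WT-only regions and the KO list (26.7%, 7.79 to 55.1), at DNMT3B, UHRF1 and TDG, against 11.9% in the series. Each interval includes the value of the series. The DNMT3B pair 2478 bp apart and the UHRF1 pair 4726 bp apart each join a WT-only and a KO-only region. Both pairs are counted in both shares, so these shares are not separate observations.

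Shared regions were the widest class. The 14 shared regions had a median of 516.5 bp (236 to 990), the 15 WT-only regions 249 bp (150 to 535) and the 7 KO-only regions 222 bp (150 to 514). Over the whole series the medians of the same classes were 460, 181 and 167 bp. Of the 36 regions, 4 had the smallest width of 150 bp (11.1%), against 30.3% of all regions. No interval was computed for this share, and no difference is read from it. Shared regions were not uniformly wide, since 5 of the 14 were 236 to 261 bp wide, at DNMT3A, UHRF1 and TDG. Since a shared region has 1 width for both genotypes, a width says nothing on how a genotype differs.

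**Figure D4:**
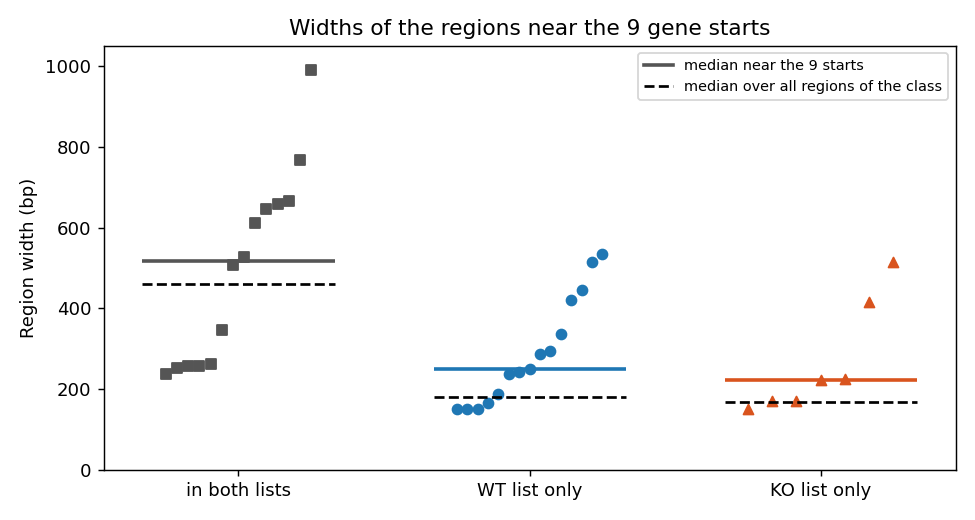
Width in bp (y axis) of each region within 100 kb of the 9 starts, by class (x axis), ordered by width within a class. Solid lines mark the median near the 9 starts and dashed lines the median of all regions of that class in the series, 516.5 against 460 bp for shared regions.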

How the data were processed

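Regions were taken from 2 deposited lists, 1 per genotype, which hold the chromosome, start and end of each region without a header. No other value is in them. The tools Bowtie2 and Picard and the build hg19 come from the submitters' processing notes. For the peak caller, its threshold, the use of IgG and the pooling of replicates, nothing is given in the sources used here. The lists gave no unit to test with a count model, and 1 list per genotype allowed no test between genotypes.

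Distances ran from the nearest edge of a region to the gene start on hg19, known to 1 kb, and regions were counted from 1. The members and gene lists were chosen with earlier results of these data known. All 9 genes are named, with the nearest and widest region of each and every region within 5 kb. Gene direction is textbook knowledge, and for 8 genes it matched RefSeq. Whether a region was exonic or intronic was not analysed here, for want of an hg19 annotation, nor were other genes of the pathway. Calculations used Python 3.11.15, pandas 2.3.3, numpy 2.4.6 and scipy 1.17.1. The routines were tested on simulated regions.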

Additional observations from a re-analysis of the deposited data

How the results depend on the processing

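The number of regions near the 9 starts depended on the limit and on the set of regions. It was 36 within 100 kb, 22 within 50 kb and 12 within 20 kb, and 18 when only regions no narrower than the median of both lists were used, which by construction also raised their median width to 514.5 bp from 273.5 bp. Requiring 50% reciprocal overlap could change nothing, because all shared regions have identical edges. Under the 10 other alternatives run for each, the WT-only percent of the WT regions ranged from 42.9 to 58.8 and the KO-only percent of the KO regions from 18.2 to 42.9, all inside the counting intervals. The number of genes with a region at the start was 5 throughout, except for 4 with DNMT3B left out. Leaving out DNMT3B and moving all starts by 0.5 kb were chosen after seeing the data. No paired analysis was possible because there is 1 list per genotype with no values per replicate, which also kept any replicate from being left out. Depth behind a call is unknown without read counts.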
